A study of Rattus norvegicus with 6 samples.

Results

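The genes described here make, sense, import, store and export cholesterol. They were chosen by name from a list of 31 gene symbols, of which 2 (Sc4mol and Sc5dl) are older symbols of other listed genes (Msmo1 and Sc5d), and the array carried all 29 genes among 19958 genes with an identifier. By role, 18 were enzymes of cholesterol synthesis (7 of the mevalonate part and 11 from squalene to cholesterol), 3 sensed sterols, 2 served uptake and intracellular transport, 2 esterified cholesterol and 4 served efflux. The efflux genes include Nr1h3, which encodes a nuclear receptor and not a transporter. 1 probe stood for each gene, the brightest on average in the authors' deposited log2 values, and 3 genes (Fdps, Scarb1 and Stard4) had a second one.

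RNA was measured on 6 one-colour Agilent rat arrays, 1 per group. FAO cells, a rat liver (hepatoma-derived) cell line, were given 100 µM deferoxamine (DFO), a drug that binds iron, for 24 h, or vehicle (0 µM) for the same time, and RNA of 3 cultures was mixed for each array. Wistar rats, which some labels call mice, were fed the purified AIN-93G diet without iron (ID) or with its iron (CTL, here control) for 4 weeks, and liver and kidney RNA of 6 animals was mixed for each array. The labels used here give no age or sex of the animals. The comparisons are deferoxamine minus untreated FAO cells, iron-free minus control liver and iron-free minus control kidney.

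Animal cells build cholesterol from acetyl-CoA through mevalonate, isoprenoid diphosphates, squalene and lanosterol, and liver is a main site of this synthesis. When membranes of the endoplasmic reticulum hold little sterol, the escort protein Scap carries the transcription factor made from Srebf2 to the Golgi, where it is cut and released to raise transcription of the synthesis and uptake genes, while Insig1 holds it back when sterol is plentiful. Oxysterols made from excess cholesterol activate the nuclear receptor LXR, which raises the efflux transporters. Several late steps use molecular oxygen: Cyp51 carries heme iron, Msmo1 and Sc5d carry non-heme iron, and squalene epoxidase (Sqle) uses a flavin.

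RefSeq promoter windows of assembly GRCr8 (300 bases, from 250 before to 50 after the annotated start) were given for 23 of the 29 genes. Of 15 synthesis enzymes with a window, 12 held the letters CCAAT, the box bound by the factor NF-Y that works beside SREBP at many sterol-responsive promoters, on either strand, 30 times in all. Over all 33469 windows the share with CCAAT on either strand was 37.5%. None of the 23 windows held TCACNCCAC, a form of the sterol regulatory element, on either strand, against 1.12% of all windows. With so low a share, its absence from 23 windows says little about these genes. Of the enzymes at least 2-fold higher in iron-free liver, Msmo1 and Hsd17b7 had 3 copies, Mvd, Idi1 and Tm7sf2 had 2, and Acat2 and Cyp51 had 0. For Sqle, also higher, no window was given. Of the enzymes not called, Nsdhl and Mvk had 5 copies, Hmgcs1, Fdps and Ebp had 2, Lss and Sc5d had 1 and Dhcr7 had 0. Pmvk and Fdft1 were without a window. Whether the box goes with the call was not tested. The windows of Mvd, Idi1 and Msmo1, chosen as called enzymes that hold the box, are printed beside that of the efflux gene Abcg5, with CCAAT in capitals (ATTGG where it lies on the other strand). Mvd is read at chr19:67414925-67415224 on the minus strand, Idi1 at chr17:66547475-66547774 on the minus strand, Msmo1 at chr16:29746863-29747162 on the plus strand and Abcg5 at chr6:15717686-15717985 on the plus strand.
Mvd: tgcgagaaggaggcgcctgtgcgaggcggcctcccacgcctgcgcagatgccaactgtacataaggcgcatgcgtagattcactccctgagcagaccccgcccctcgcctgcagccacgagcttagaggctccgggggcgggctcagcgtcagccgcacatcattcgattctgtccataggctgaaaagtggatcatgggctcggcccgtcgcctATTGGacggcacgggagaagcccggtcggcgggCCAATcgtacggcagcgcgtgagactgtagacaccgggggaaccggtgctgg
Idi1: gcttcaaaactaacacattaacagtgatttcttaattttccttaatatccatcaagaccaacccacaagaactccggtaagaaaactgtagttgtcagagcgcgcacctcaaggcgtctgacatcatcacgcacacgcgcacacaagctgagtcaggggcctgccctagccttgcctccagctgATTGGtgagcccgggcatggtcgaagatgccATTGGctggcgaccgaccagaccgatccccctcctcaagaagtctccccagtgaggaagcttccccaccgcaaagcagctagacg
Msmo1: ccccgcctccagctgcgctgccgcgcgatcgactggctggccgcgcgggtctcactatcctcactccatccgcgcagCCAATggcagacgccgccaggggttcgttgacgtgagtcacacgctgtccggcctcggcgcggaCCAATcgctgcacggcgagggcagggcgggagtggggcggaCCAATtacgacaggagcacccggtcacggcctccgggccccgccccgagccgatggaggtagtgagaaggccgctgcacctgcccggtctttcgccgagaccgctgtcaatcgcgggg
Abcg5: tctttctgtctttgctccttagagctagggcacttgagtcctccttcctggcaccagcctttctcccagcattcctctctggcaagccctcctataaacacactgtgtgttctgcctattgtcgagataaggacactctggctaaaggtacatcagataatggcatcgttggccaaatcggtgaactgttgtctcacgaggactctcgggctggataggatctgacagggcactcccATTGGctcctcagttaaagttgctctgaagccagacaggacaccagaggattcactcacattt
Msmo1 had 3 copies of the box, all on its own strand, Mvd 2, 1 on each strand, and Idi1 2, both on the other strand. Abcg5 had 1 copy, and its window shares 295 bases with that of Abcg8, its neighbour on the opposite strand, so both read the same copy. These matches are letters in a window, not measured binding.

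With 1 array per group there was no test and no p-value, and a gene was called by size alone, at 2-fold (a log2 difference of 1) or more. Levels are scaled signals, the background-subtracted intensity after 1 factor per array had set the 75th percentile of 9091 shared probes equal, and levels of different probes are not compared with each other. The error given beside a log2 difference is a spot standard error. It is taken from the spread between repeated spots on the array, pooled over probes of similar signal, so it is not a probe's own spread. It covers nothing of the spread between animals or cultures. Well above background were 37.7% to 48.8% of 30367 probes per array, and no gene spot was saturated. In 31 of 264 blocks of 16 by 16 spots on the control liver array, and 12 on the deferoxamine array, the repeats of single probes disagreed, against 0 to 3 such noisy blocks on the other arrays. A spot lay in a noisy block for 8 of the 29 genes on control liver, 2 on deferoxamine (Insig1 and Hsd17b7) and 1 on control kidney (Cyp51). That Cyp51 spot was also flagged as an outlier and was not used. The albumin gene Alb had 142826 in iron-free and 86391 in control liver and was not well above background in kidney, and the tubule gene Umod had 164908 in iron-free and 200247 in control kidney. Of the 29 genes, 28 had a value in at least 1 comparison and 21 were well above background on all 6 arrays.

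**Figure D1:**
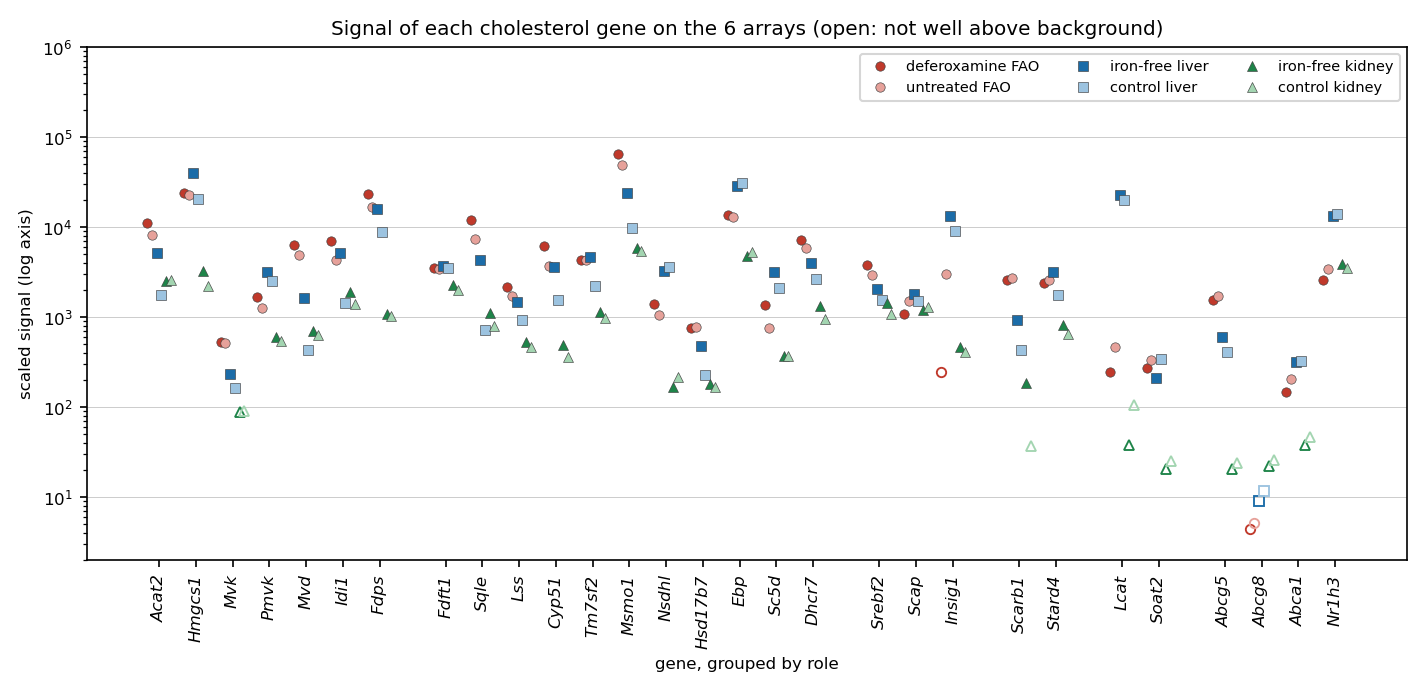
Scaled signal (log axis) of each of the 29 genes on the 6 arrays, 1 point per array, genes grouped by role, with open symbols where the probe was not well above background. Iron-free liver (dark squares) lies above control liver (light squares) for most synthesis enzymes, and Abcg8 is open on all arrays.

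In iron-free liver, RNA of 8 of the 18 cholesterol synthesis enzymes was at least 2-fold higher than in control liver, 10 lay within 2-fold and 0 were lower, with a median log2 difference of 0.91 and a range of -0.12 to 2.59, while the median over all measured genes was 0.02. The largest were Sqle, Mvd, Idi1 and Acat2. With Scarb1, 9 of the 28 measured genes of the whole set were higher and 0 lower. Of all 10172 genes measured in liver, 6.52% passed 2-fold upward and 3.01% downward. These are bulk tissues, in which more RNA per cell and more cells of a type cannot be told apart.

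The mevalonate enzymes were all on the positive side in liver (7 of 7, median 0.98), with 3 of them at least 2-fold higher. Acat2, the cytosolic thiolase that joins acetyl-CoA units, had a signal of 5157 in iron-free and 1762 in control liver, 2.93-fold higher (log2 difference 1.55 ± 0.27). Mvd, which decarboxylates mevalonate diphosphate, had 1632 in iron-free and 432 in control liver, 3.78-fold higher (1.92 ± 0.28). Idi1, the isomerase that makes dimethylallyl diphosphate, had 5100 in iron-free and 1441 in control liver, 3.54-fold higher (1.82 ± 0.27). For Idi1 the spots of each array lay close together, at 5165 and 5035 in iron-free liver and 1408 and 1475 in control liver. The same held for Mvd, with 1635 and 1629 in iron-free and 474 and 394 in control liver.

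The other mevalonate enzymes stayed under 2-fold. Hmgcs1, which makes HMG-CoA in the cytosol, had 39924 in iron-free and 20261 in control liver, just inside the threshold at 1.97-fold (0.98 ± 0.27). Its control spots disagreed, at 14220 in a noisy block and 28867 outside it, and with the noisy block left out the difference was 0.48. Fdps, which makes farnesyl diphosphate, had 15968 in iron-free and 8853 in control liver (0.85 ± 0.25), and its other probe gave 0.69. Mvk, mevalonate kinase, had 234 in iron-free and 161 in control liver (0.54 ± 0.40). Pmvk, the next kinase, had 3185 in iron-free and 2487 in control liver (0.36 ± 0.27).

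Among the 11 enzymes from squalene to cholesterol, 5 were at least 2-fold higher in iron-free liver and the median was 0.66. Sqle, which oxidises squalene, had 4251 in iron-free and 708 in control liver, 6.00-fold higher (2.59 ± 0.27). Its spots read 4052 and 4459 in iron-free liver, against 947 and 530 in control liver, so the groups of spots did not overlap. The brighter control spot lay in a noisy block, and without it the difference was 3.02 (8.11-fold). Cyp51, the heme-containing demethylase of lanosterol, was read from 10 spots on each liver array and had 3591 in iron-free and 1527 in control liver, 2.35-fold higher (1.23 ± 0.12). Its lowest spot in iron-free liver was 3352 and its highest in control liver 1949. Msmo1, the iron-containing methyl sterol oxidase, had 23919 in iron-free and 9829 in control liver, 2.43-fold higher (1.28 ± 0.25).

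The reductases Hsd17b7 and Tm7sf2 were close to the threshold from above. Hsd17b7, which reduces the sterol ketone during demethylation, had 482 in iron-free and 227 in control liver, 2.12-fold higher (1.08 ± 0.38). Tm7sf2, a sterol reductase, had 4646 in iron-free and 2206 in control liver, 2.11-fold higher (1.07 ± 0.27). Lss, Sc5d and Dhcr7 lay under 2-fold. Lss, which closes the rings to lanosterol, had 1462 in iron-free and 925 in control liver (0.66 ± 0.26). Sc5d, the iron-containing sterol desaturase, had 3126 in iron-free and 2082 in control liver (0.59 ± 0.27). Dhcr7, which makes cholesterol from its dehydro precursor, had 3942 in iron-free and 2621 in control liver (0.59 ± 0.27).

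A few sterol enzymes differed by no more than their spot error in liver. Fdft1, squalene synthase, had 3667 in iron-free and 3527 in control liver (0.06 ± 0.25). Nsdhl, which removes the carboxyl group during demethylation, had 3273 in iron-free and 3560 in control liver (-0.12 ± 0.25). Ebp, the sterol isomerase, had 28463 in iron-free and 30548 in control liver (-0.10 ± 0.27), and 0.09 with a noisy block left out. Neighbouring steps could thus differ unequally, as Sqle at 2.59 and Fdft1, the enzyme just before it, at 0.06.

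Of the 3 sterol sensors, 0 were at 2-fold in liver, and their values lay within the range of the enzymes. Insig1 had 13338 in iron-free and 8940 in control liver (0.58 ± 0.25). Srebf2 had 2026 in iron-free and 1524 in control liver (0.41 ± 0.28). Scap had 1794 in iron-free and 1504 in control liver (0.25 ± 0.28). All of these differences were positive.

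Of the uptake and transport genes, Scarb1, the receptor that takes cholesterol from HDL, had 926 in iron-free and 425 in control liver, 2.18-fold higher (1.12 ± 0.39). This rests on 1 spot per array. The gene's other probe, with 2 spots, had 831 in iron-free and 700 in control liver (0.25 ± 0.28), so the probes disagreed on the call. Stard4, which carries sterol between membranes, was read from 10 spots and had 3140 in iron-free and 1735 in control liver (0.86 ± 0.12), with 0.57 by its other probe. Its lowest spot in iron-free liver was 2980 and its highest in control liver 2280.

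Esterification and efflux genes lay on both sides of zero in liver, with 0 of 5 measured at 2-fold. Lcat, the plasma enzyme that esterifies cholesterol on HDL, had 22595 in iron-free and 19720 in control liver (0.20 ± 0.27). Soat2, which esterifies cholesterol inside hepatocytes, had 211 in iron-free and 344 in control liver (-0.70 ± 0.33). Abcg5, 1 partner of the transporter that moves sterols into bile, had 599 in iron-free and 408 in control liver (0.55 ± 0.28). Its partner Abcg8 was not well above background on any array. Abca1, which loads cholesterol onto apolipoproteins, had 316 in iron-free and 323 in control liver (-0.03 ± 0.31). Nr1h3, the gene of LXR alpha, had 13322 in iron-free and 14045 in control liver (-0.08 ± 0.27), and 0.11 with a noisy block left out.

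**Figure D2:**
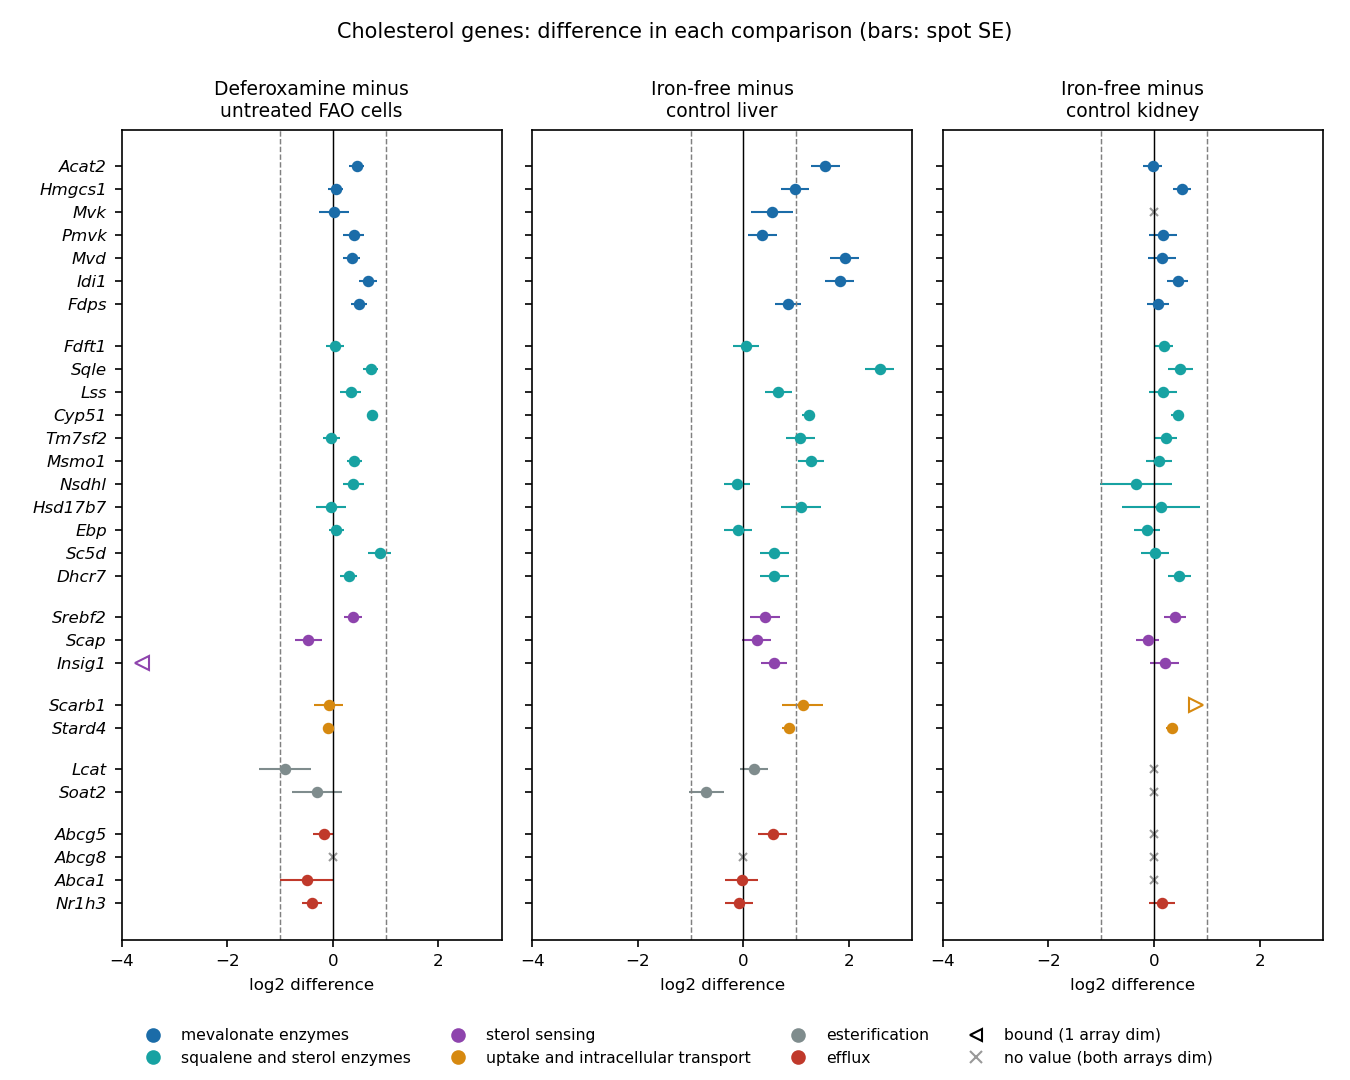
Log2 difference of each gene in deferoxamine minus untreated FAO cells, iron-free minus control liver and iron-free minus control kidney, with the spot standard error as bars, open triangles for bounds and crosses where neither array was well above background. Dashed lines mark 2-fold; in liver 8 synthesis enzymes and Scarb1 lie to the right of the line, in kidney no point does (Scarb1 there is a lower bound), and in FAO cells only Insig1 lies beyond a line, to the left.

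Most measured erythroid and proliferation markers were at least 2-fold higher in iron-free liver, while most macrophage and hepatocyte markers lay within 2-fold. Of 6 measured erythroid markers, 5 were at least 2-fold higher in iron-free liver (median 2.28), among them Rhd (3.06 ± 0.56) and Ahsp (2.76 ± 0.27). The summed signal of all 10 listed erythroid markers was 12571 in iron-free and 2868 in control liver. Of 10 listed erythroid markers, 4 were not well above background on either liver array, the erythroid transcription factor Gata1 among them. Of 10 proliferation markers, 8 were at least 2-fold higher (median 2.02), led by Cdk1 (3.36 ± 0.18), Rrm2 (3.21 ± 0.30) and Mki67 (2.97, not well above background in control liver). The summed signal of the proliferation markers was 7847 in iron-free and 1505 in control liver. Of 9 macrophage markers 2 were higher (median 0.21), with sums of 65290 in iron-free and 59164 in control liver. Of 11 hepatocyte markers 2 were higher and 0 lower (median 0.07). The part of these markers in the differences of the cholesterol genes was not tested.

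In FAO cells given deferoxamine, synthesis enzymes lay slightly above untreated cells, and none reached 2-fold. The differences were positive for 16 of 18 enzymes, with a median of 0.37 and a range of -0.04 to 0.89, against a median of 0.03 over all measured genes. The largest were Sc5d, Cyp51, Sqle and Idi1, at 1.59-fold to 1.85-fold. Of the 28 measured genes of the set, 0 were at least 2-fold higher and 1, Insig1, was lower, a call that rests on 1 of 2 spots. Of all 10695 genes measured in FAO cells, 4.05% passed 2-fold upward and 6.44% downward.

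Sc5d had a signal of 1376 in deferoxamine-treated and 744 in untreated cells (0.89 ± 0.21). Cyp51 had 6088 in treated and 3643 in untreated cells (0.74 ± 0.08), and its lowest treated spot of 10, 5495, stood above its highest untreated spot, 3845. Sqle had 11990 in treated and 7300 in untreated cells (0.72 ± 0.15). These differences were larger than their spot errors, though the spread between cultures is not known because the RNA was mixed. Idi1 had 6905 in treated and 4342 in untreated cells (0.67 ± 0.17). Fdps had 23405 in treated and 16585 in untreated cells (0.50 ± 0.14, and 0.51 by its other probe). Acat2 had 11012 in treated and 8060 in untreated cells (0.45 ± 0.14). Msmo1 had 64564 in treated and 48600 in untreated cells (0.41 ± 0.14).

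The remaining enzymes lay between -0.04 and 0.40 in FAO cells. Pmvk had 1677 in treated and 1271 in untreated cells (0.40 ± 0.20). Nsdhl had 1381 in treated and 1053 in untreated cells (0.39 ± 0.20). Mvd, among the largest in liver, had 6270 in treated and 4899 in untreated cells (0.36 ± 0.17). Lss had 2159 in treated and 1705 in untreated cells (0.34 ± 0.20). Dhcr7 had 7111 in treated and 5774 in untreated cells (0.30 ± 0.17). Hmgcs1, Mvk, Fdft1, Ebp, Tm7sf2 and Hsd17b7 differed by no more than their spot errors, at 0.06, 0.03, 0.05, 0.07, -0.03 and -0.04. Tm7sf2 and Hsd17b7 had been among the enzymes over 2-fold in liver.

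Insig1 gave opposite readings from its 2 spots on the deferoxamine array. The spots read 9602 and 6.30 in treated cells, against 2857 and 3177 in untreated cells. With both spots the probe counted as not well above background in treated cells, and its difference was -3.62 (12.3-fold lower). That value uses the geometric mean of the spots, 246. This lies above the lowest signal detected on that array, 20.2, so the value sets no limit on the fold. The dim spot lay in a noisy block, and without it Insig1 was 3.11-fold higher in treated cells (1.64, 1 treated spot). The direction of Insig1 in FAO cells is therefore not settled by this array. Insig2, its relative on the list of other sterol genes, had 418 in treated and 118 in untreated cells (1.82 ± 0.53).

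**Figure D3:**
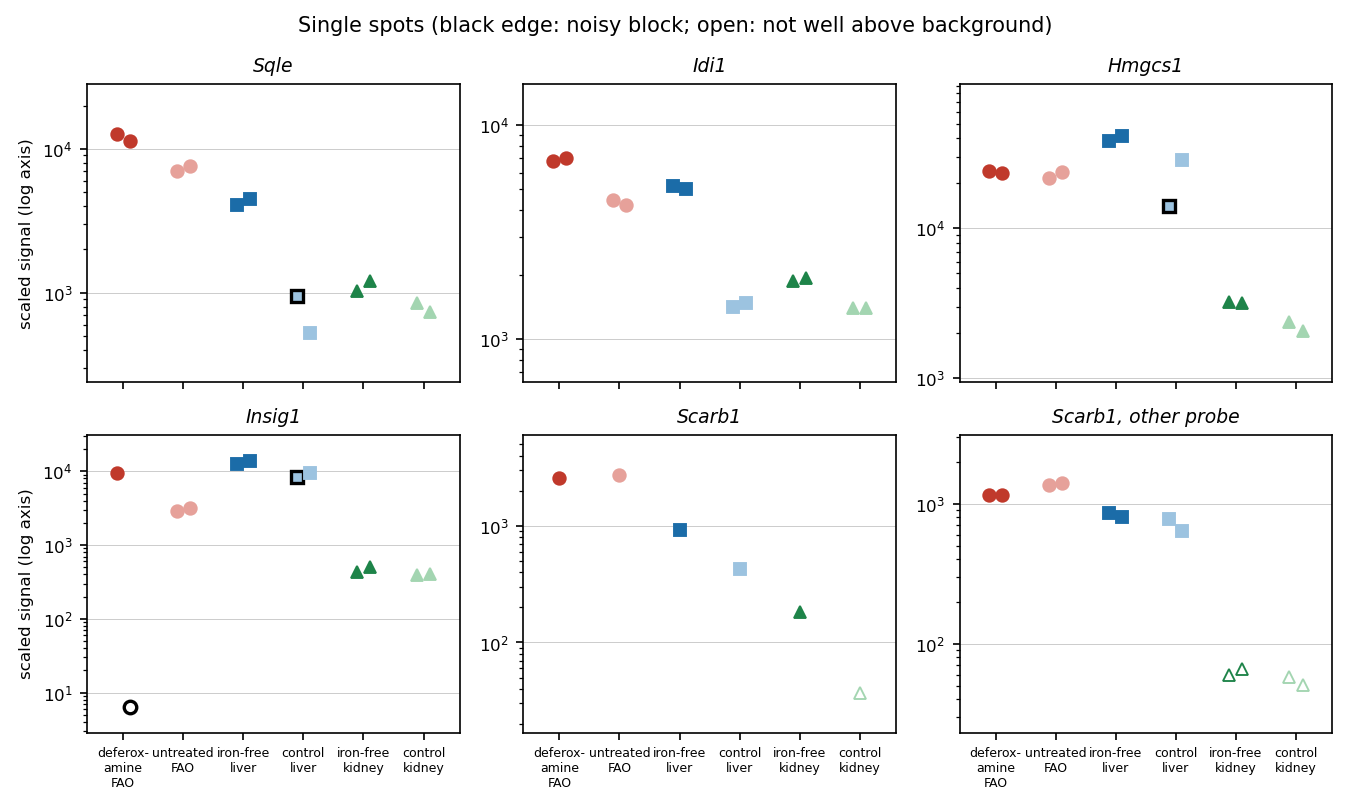
Scaled signal (log axis) of single spots of Sqle, Idi1, Hmgcs1, Insig1 and both Scarb1 probes on the 6 arrays, with a black edge for spots in noisy blocks and open symbols for spots not well above background. The 2 Insig1 spots of the deferoxamine array read 9602 and 6.30, on either side of the untreated spots, while the Idi1 spots of each array lie close together.

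The other sensing, transport, storage and efflux genes lay below or near zero in FAO cells, apart from Srebf2. Srebf2 had 3753 in treated and 2889 in untreated cells (0.38 ± 0.17). Scap had 1085 in treated and 1492 in untreated cells (-0.46 ± 0.26). Scarb1 had 2565 in treated and 2708 in untreated cells (-0.08 ± 0.28), and -0.25 ± 0.26 by its other probe. Stard4 had 2396 in treated and 2544 in untreated cells (-0.09 ± 0.09), and the opposite sign, 0.35 ± 0.73, by its other probe. Of the genes detected on both FAO arrays, Lcat had the lowest difference, with 246 in treated and 461 in untreated cells (-0.91 ± 0.49). Soat2 had 270 in treated and 331 in untreated cells (-0.29 ± 0.47). All 3 measured efflux genes were negative and under 2-fold. Nr1h3 had 2571 in treated and 3370 in untreated cells (-0.39 ± 0.20). Abca1 had 146 in treated and 205 in untreated cells (-0.49 ± 0.51). Abcg5 had 1532 in treated and 1729 in untreated cells (-0.17 ± 0.20). For Soat2, Abca1, Abcg5, Scarb1 and Stard4 the difference did not exceed the spot error.

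In FAO cells 0 of 10 proliferation markers were at 2-fold in either direction (median -0.00). Of 11 hepatocyte markers 1 was higher and 2 lower (median -0.17), and of 2 measured erythroid markers 1, Ahsp, was higher, at 103.7 in treated cells against a signal not well above background in untreated cells. Their part in the results was not tested.

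In kidney of rats fed without iron, no synthesis enzyme measured on both arrays reached 2-fold. Of 17 measured enzymes 14 were positive, with a median of 0.17 and a range of -0.34 to 0.53, against a median of -0.03 over all measured genes. The largest were Hmgcs1, Sqle, Dhcr7, Cyp51 and Idi1. Of the 23 genes of the set with a value, 0 were called in either direction, though 1 of them, Scarb1, has only a lower bound that leaves its side of 2-fold unknown. Of all 8952 genes measured in kidney, 3.11% passed 2-fold upward and 1.26% downward.

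Hmgcs1 had a signal of 3201 in iron-free and 2218 in control kidney (0.53 ± 0.18). Sqle had 1117 in iron-free and 790 in control kidney (0.50 ± 0.24). Dhcr7 had 1317 in iron-free and 943 in control kidney (0.48 ± 0.21). These exceeded their spot errors, and each was under 1.5-fold. Cyp51 had 489 in iron-free and 358 in control kidney (0.45 ± 0.13). With outlier spots left out, its spots ran from 394 to 596 in iron-free kidney and from 281 to 400 in control kidney, so that they overlapped. Idi1 had 1901 in iron-free and 1396 in control kidney (0.45 ± 0.20). Mvd had 701 in iron-free and 633 in control kidney (0.15 ± 0.27), and Acat2 had 2530 in iron-free and 2579 in control kidney (-0.03 ± 0.18). These were among the largest in liver.

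Fdft1, Tm7sf2 and the other measured enzymes lay between -0.34 (Nsdhl, ± 0.67) and 0.23 (Tm7sf2, ± 0.21) in kidney, and Mvk was dim (not well above background) on both kidney arrays. Among the sensors, Srebf2 had 1431 in iron-free and 1085 in control kidney (0.40 ± 0.21), Insig1 had 465 in iron-free and 405 in control kidney (0.20 ± 0.27), and Scap had 1192 in iron-free and 1297 in control kidney (-0.12 ± 0.21). Stard4 had 811 in iron-free and 640 in control kidney (0.34 ± 0.12). Scarb1 had 183 in iron-free kidney and was not well above background in control kidney, a bound of at least 1.74-fold higher (0.80) from 1 spot, while its other probe was dim on both arrays. Lcat, Soat2, Abcg5, Abcg8 and Abca1 were dim on both kidney arrays and have no fold. Nr1h3 had 3909 in iron-free and 3536 in control kidney (0.14 ± 0.25). In kidney 1 of 6 measured erythroid markers was at least 2-fold higher, Ahsp at 3.49 ± 0.49, and 0 of 7 proliferation markers were. The summed signal of all 10 listed erythroid markers was 5674 in iron-free and 3080 in control kidney. Of the 10 kidney tubule markers 0 differed by 2-fold (median 0.02), and of 6 macrophage markers 0 did (median 0.15).

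The 20 synthesis and uptake genes were set beside the 4 efflux genes. In FAO cells the median difference was 0.35 over synthesis and uptake and -0.39 over the 3 measured efflux genes, 0.74 apart. In liver it was 0.92 over synthesis and uptake and -0.03 over 3 efflux genes, 0.95 apart. In kidney it was 0.18 over 19 measured synthesis and uptake genes and 0.14 for Nr1h3, the only efflux gene measured there, 0.03 apart. Nr1h3 encodes a receptor, so no transporter of the set was measured in kidney. The exporter Abcg1, from the list of other genes, was at 0.16 ± 0.21 there. The FAO efflux median is also the value of Nr1h3. The FAO values of the transporter genes Abca1 (-0.49 ± 0.51) and Abcg5 (-0.17 ± 0.20) did not exceed their spot errors. In liver the ranges of single genes overlapped, since Abcg5 at 0.55 stood above Ebp, Nsdhl, Fdft1, Pmvk and Mvk. In FAO cells the efflux genes ended at -0.17 (Abcg5) and the synthesis and uptake genes began at -0.09 (Stard4). That gap was smaller than the spot error of Abcg5. It closed with normexp, where the lowest synthesis or uptake gene was at -0.46. The other probe of Scarb1, at -0.25, also lay below Abcg5. With 3 efflux genes or fewer, these medians describe those genes only.

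**Figure D4:**
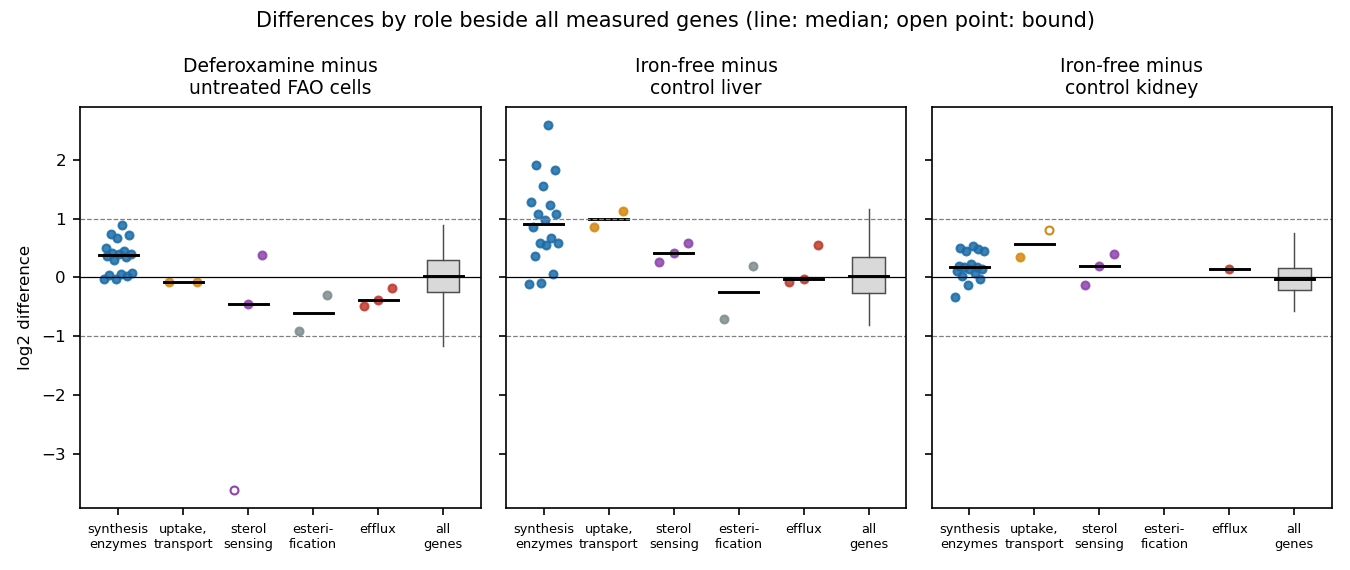
Log2 differences by role in the 3 comparisons, 1 point per gene with a line at the median, beside all measured genes (box from the 25th to the 75th percentile, whiskers from the 5th to the 95th). Open points mark genes not well above background on 1 array. The synthesis enzymes center at 0.91 in liver, 0.37 in FAO cells and 0.17 in kidney, and the efflux genes at -0.03, -0.39 and 0.14. The kidney efflux value is that of Nr1h3 alone.

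Enzymes that carry iron or heme (Cyp51, Msmo1 and Sc5d) were set beside the others. Their median was 0.74 in FAO cells, 1.23 in liver and 0.10 in kidney, against 0.34, 0.85 and 0.17 over the other synthesis enzymes. With Sqle added, the enzymes that use oxygen had medians of 0.73 in FAO cells, 1.26 in liver and 0.27 in kidney, against 0.32, 0.76 and 0.17 over the rest. In FAO cells Sc5d, Cyp51 and Sqle were the highest of the 18 enzymes, except that with normexp Idi1, which uses no oxygen, stood at 0.99, level with Sc5d at 0.99 and above Cyp51 at 0.90. In liver the enzymes next to Sqle in size were Mvd, Idi1 and Acat2, which use no oxygen. These groups hold 3 and 4 genes, and nothing was tested between them.

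The same enzymes were compared between the arrays of different sources. The difference in liver was larger than in kidney for 16 of 17 enzymes, the exception being Fdft1. With noisy blocks left out Hmgcs1 was another exception, at 0.48 in liver and 0.54 in kidney. Across these 17 enzymes the liver and kidney differences had a Pearson r of 0.53 (Spearman rho 0.37), and across all 7035 genes measured in both r was 0.22. Liver exceeded FAO cells for 14 of 18 enzymes, the exceptions being Pmvk, Nsdhl, Ebp and Sc5d. The r was 0.40 (Spearman rho 0.34, all genes r 0.17). Pmvk and Ebp were no longer exceptions with noisy blocks left out. FAO cells exceeded kidney for 12 of 17 enzymes, with an r of 0.11 but a Spearman rho of -0.08 (all genes r 0.09). Hsd17b7 joined them with noisy blocks left out, at 0.25 in FAO cells and 0.14 in kidney. No such counts were made over all genes. Genes of 1 array share its scaling and are not independent replicates, the liver and kidney RNA were from rats on the same diets, and a difference between sources has no error from animals or cultures.

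**Figure D5:**
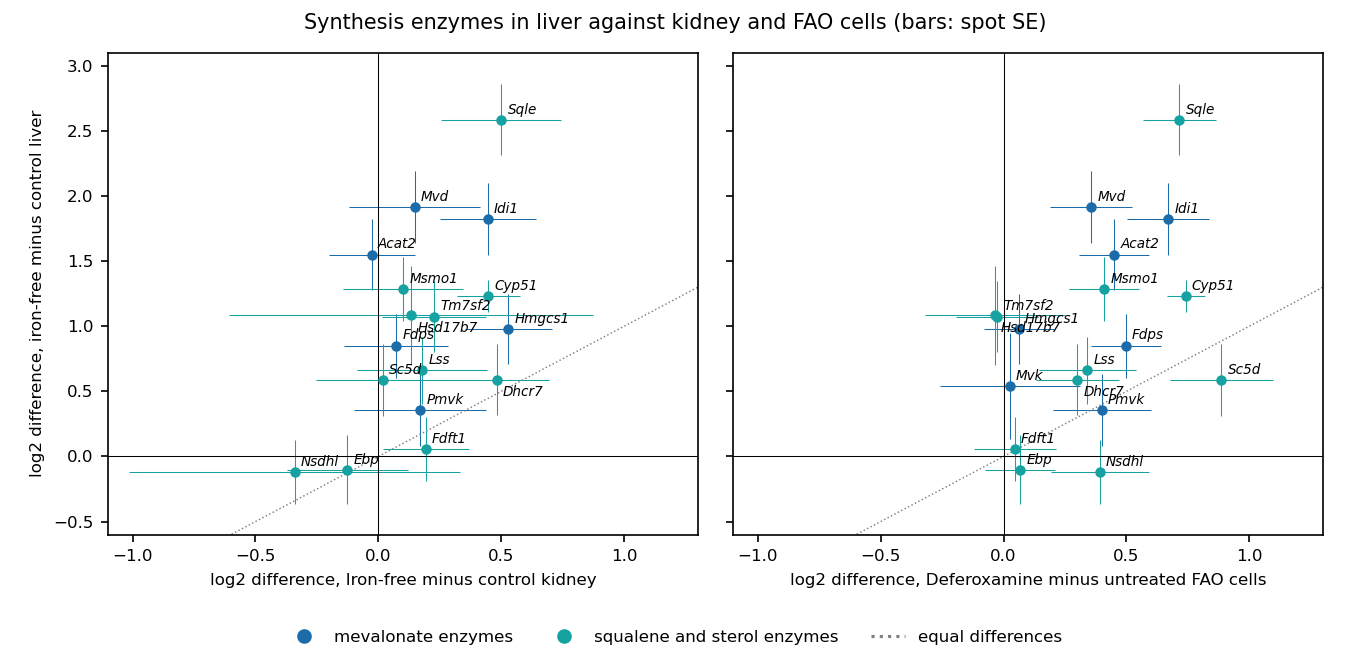
Log2 difference of each synthesis enzyme in liver (iron-free minus control) against its difference in kidney (left) and in FAO cells (right), with spot standard errors as bars and a dotted line of equal differences. All but Fdft1 lie above the dotted line on the left, and Pmvk, Nsdhl, Ebp and Sc5d lie below it on the right. Spots in noisy blocks are included.

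The untreated sources also differed in how much RNA of these genes they held. Of 17 synthesis enzymes detected in both control liver and control kidney, 9 were at least 2-fold higher in liver, 0 were lower and the median log2 difference was 1.19. Over all 7112 genes detected in both, 11% passed 2-fold upward and 19.8% downward in liver relative to kidney, with a median of -0.20. Nsdhl was the most liver-rich enzyme, with 3560 in control liver against 213 in control kidney, and Insig1 had 8940 in control liver against 405 in control kidney. Acat2, Mvd, Idi1 and Sqle, the most different enzymes in iron-free liver, had similar or lower signals in control liver than in control kidney (log2 -0.55, -0.55, 0.05 and -0.16). Sqle, for example, had 708 in control liver against 790 in control kidney. These genes were picked by a difference that itself uses the control liver array. A low reading on that array would raise that difference and lower control liver against control kidney. The same array enters the comparison with FAO cells. Between untreated FAO cells and control liver, 9 of 18 enzymes were at least 2-fold higher in the cells and 3 lower (Nsdhl, Ebp and Sc5d), with a median of 1.06. Over all 7632 genes detected in both, 23.2% passed 2-fold upward and 25.2% downward in the cells, with a median of 0.02. Mvd had 4899 in untreated cells and 432 in control liver, and Sqle had 7300 in untreated cells and 708 in control liver, so the cell line held more of this RNA than control liver without the drug. Lcat ran the other way, with 461 in untreated cells and 19720 in control liver.

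Other genes of the pathway, from lists of related genes, showed few differences of 2-fold. Of other synthesis and isoprenoid genes, 0 of 9 measured were called in FAO cells (median -0.26), 1 of 8 was higher in liver (median 0.04) and 0 of 6 were called in kidney (median -0.21). The gene in liver was Aacs, which activates acetoacetate for sterol synthesis, with 120 in iron-free liver and a dim signal in control liver, a bound of 1.41. Of other sensing and transport genes, 1 of 10 was higher in FAO cells (Insig2), 0 of 11 were called in liver and 0 of 8 in kidney. In liver Insig2 had 6710 in iron-free and 3885 in control liver (0.79 ± 0.25). Of LXR partners, LXR targets and HDL genes, 1 of 7 was lower in FAO cells, 1 of 10 was higher in liver and 0 of 4 were called in kidney. The lower gene was Mylip, a ubiquitin ligase induced by LXR, with 25.7 in treated and 72.8 in untreated cells (-1.51 ± 1.07), both near background. The higher gene was Apoa1, the main protein of HDL, with 117570 in iron-free and 51434 in control liver (1.19 ± 0.27). Abcg1, a cholesterol exporter of macrophages, had 967 in iron-free and 902 in control liver (0.10 ± 0.26).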

How the data were processed

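RNA was measured in 6 pooled samples, 1 one-colour array each, on 1 slide. Per the file headers, the authors extracted spots with Agilent Feature Extraction 10.7.3.1 (array design 028279, header build rn4), and the intensity taken from their deposited files, gProcessedSignal, had its background subtracted and is linear; other flags mark outlier spots and spots well above background. A series table by the authors gives an intensity per probe, equal (tolerance 0.0001 of the value) to the geometric mean over spots for 97.1% to 98.3% of probes, and a log2 value, found by comparison to be that intensity in log2 after subtracting its 75th percentile on the array. Medians of these deposited log2 columns were -4.19 for deferoxamine, -4.16 for untreated FAO cells, -3.31 for iron-free and -3.44 for control liver, and -3.28 for iron-free and -3.33 for control kidney. Their column names stand on a comment line and name the scanner file of each sample, by which columns were matched. The intensities were then compared with the scanner files as given above.

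Here log2 signals of 58717 gene spots were averaged per probe without outlier spots (680 to 1215 per array), and each array was centred on its 75th percentile over 9091 probes (29.9%) that every array detected, since fewer than 50% of probes were detected on each. A detected probe is one with all spots flagged well above background. With 1 dim array in a pair the difference is a bound, for which the dim signal is replaced by the lowest signal detected on that array unless it is already higher, and medians take it at the bound. Where it is already higher, as for Insig1 in FAO cells and Mki67 in liver, the value is the plain difference and sets no limit. The spot error pools the spread between spots in 20 bins of signal. A noisy block of 16 by 16 spots is one whose repeated spots departed by a median over 0.5 (log2) from the other spots of their probe. Probes were joined to genes through the authors' ID column (24272 probes; another 6095 lack one and were left out), and 19142 of 19958 genes were found in RefSeq GRCr8. Genes named are all members, and from other lists those at least 2-fold different, up to 3 per list and comparison by size; Alb, Umod, Abcg1, Gata1 and the liver value of Insig2 were added after their values were seen. The members, the 3 lists of other cholesterol genes and the 5 marker lists were chosen with earlier results of these data known; of 84 listed symbols of these lists 83 were on the array. Some genes of these lists are not reported here by name.

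With 1 array per group no test was made; the number of arrays limits the precision, as does signal over background for dim probes. Alternatives were other scalings, normexp with quantile normalization, the authors' log2 values, noisy blocks left out, outlier spots kept, no filter on dim probes, the mean of a gene's probes and a 1.5-fold threshold. Normexp was planned on the mean spot signal and was run on the median spot signal instead. Steps were tested on simulated data. Software was Python 3.11.15, numpy 2.4.6, pandas 2.3.3, matplotlib 3.10.9, R 4.3.3 and limma 3.58.1.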

Additional observations from a re-analysis of the deposited data

Results flagged for a closer look

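Insig1 was singled out because its difference had opposite signs in FAO cells (-3.62, deferoxamine minus untreated) and in liver (0.58, iron-free minus control), with 1 array per group. The contrast between the sources was not tested. The FAO value rests on the dim spot of the deferoxamine array, and without spots in noisy blocks it was 1.64 in FAO cells and 0.49 in liver.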

How the results depend on the processing

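In liver the same 9 genes were at least 2-fold higher with scaling to the 75th percentile of all probes, the authors' log2 values, noisy blocks left out, outlier spots kept and no filter on dim probes. Normexp with quantile normalization called 8, of which 7 were shared (Hmgcs1 was added, Hsd17b7 and Scarb1 were not called), and the mean of a gene's probes called 8, without Scarb1. Scaling to the median of each array's own detected probes shifted the median of genes measured in liver by 0.58 (47.7% of probes were detected on iron-free and 40.1% on control liver) and gave 18 higher genes, a median of 1.498 over synthesis and uptake and 0.55 over efflux. In kidney the same scaling shifted all genes by 0.20. The liver efflux median was 0.17 with normexp and 0.11 without noisy blocks. In FAO cells normexp called 1 gene higher (Sqle) and gave a synthesis and uptake median of 0.55; without noisy blocks 1 gene was higher and 0 lower, because Insig1 turned to 1.64. At 1.5-fold, 4 genes were higher and 2 lower in FAO cells, 15 higher and 1 lower in liver, and 1 higher in kidney. With no filter on dim probes in kidney, 1 gene was higher (Scarb1, at 2.30) and 1 lower (Lcat). The control kidney spots of Lcat read 406 and 27.3, and only the brighter was well above background. The efflux median was then -0.22 over 4 genes, with Abcg5, Abcg8 and Abca1, dim on both kidney arrays, let in. The distance between synthesis and uptake and efflux was 0.40. Of 616 single-gene values with a spot error under the alternatives, 551 moved by less than that error and 65 by more. Part of the 551 could not move. Dropping the filter on dim probes leaves a value detected on both arrays unchanged. The mean of a gene's probes can change only Fdps, Scarb1 and Stard4. The tally therefore overstates how stable the values are. Another 16 values were those of Insig1 (FAO cells) and Scarb1 (kidney), each dim on 1 array. These have no spot error, and 1 of them changed sign (Insig1). No paired analysis was possible because each group has 1 array, and for the same reason no replicate could be left out.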
